A study of Mus musculus with 2 samples.

Results

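The RNA of 9 genes of the complement system is described in mouse kidney: C3, C4b, Cfi, Cfb, Cfd, C1qa, C1qb, C1qc and Cd59a. The genes were taken by symbol from the gene rows of the deposited tables, and each symbol met 1 row, so that 9 of 43346 gene rows were used. The study sequenced polyadenylated RNA from the kidney of 1 adult female C57BL/6J mouse aged 10 weeks, with no treatment, mutant allele or other tissue in the labels. The 2 sequenced samples are technical replicates of the same biological replicate, numbered 2 and 1, and are called library 2 and library 1. Expected counts summed to 20720537 in library 2, against 28263730 in library 1. The labels date the work on library 2 to May 2015. There is 1 group, so each SD below is over n = 2 technical libraries and says nothing about variation between animals.

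Complement is a set of plasma and membrane proteins that tags and lyses foreign or damaged cells. The classical route begins when C1q binds an immune complex and its proteases cleave C4 and C2, and the alternative route builds a convertase from C3 and factor B with the help of factor D. Both meet at C3, the central component, while factor I and the membrane protein CD59 hold the cascade back. The liver makes most of the circulating proteins, C1q comes mainly from macrophages and related cells, and factor D, also called adipsin, is abundant in fat. Kidney tubule cells are also known to make C3 and factor B. In a whole piece of tissue, fewer cells of a type and less RNA per cell cannot be told apart.

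Cfb and Cd59a led the 9 genes, and the genes of C1q, factor D and C4 were under 1 TPM in library 1. In TPM, a share of all transcripts corrected for their length, 8 of the 9 genes reached 1 in library 2 and 4 of them reached it in library 1. The 4 were Cfb, Cd59a, C3 and Cfi, and C4b reached it in neither. The 9 genes summed to 288.93 TPM in library 2 and to 56.13 TPM in library 1. Over all gene rows, 13223 reached 1 TPM in library 2 and 9532 in library 1, so fewer genes in general reached it in library 1. Mitochondrial genes took 19.8% of the TPM sum of library 2 and 51.7% of that of library 1, which lowers the TPM of every other gene in library 1. The tissue label was met by the kidney markers, since all 6 proximal tubule and all 3 thick ascending limb markers reached 1 TPM in both libraries. Endothelial markers summed to 223 TPM in library 2 and 82.0 TPM in library 1, and stromal and mural markers to 148 TPM in library 2 and 49.9 TPM in library 1. Neutrophil markers summed to 3.23 TPM in library 2 and 1.01 TPM in library 1, and B cell markers to 0.52 TPM in library 2 and 0 in library 1.

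The libraries were set against each other by a two-sided exact binomial test on rounded expected counts, with library sizes scaled by TMM and Benjamini-Hochberg adjustment over 15553 genes. Calls required an adjusted p under 0.05 and a ratio of 2-fold or more. Of the 9 genes, 7 were called higher in library 2, where 35.7% of all genes tested were called in that direction. None was called higher in library 1, where 25.2% of all genes tested were called, and Cfi and Cd59a were not called. Scaled by total counts in place of TMM, 7681 genes were higher in library 2 and 718 in library 1, against 5545 and 3918 under TMM, and the median log2 ratio of all genes moved by 0.90. The median log2 ratio of library 2 over library 1 was 3.78 over the 9 genes and 0.12 over all genes tested. With the trend on GC content described further on removed, 3 of the 7 calls held. That of Cfb is for its own row. Its sum with the overlapping gene Gm20547, also described below, lay less than 2-fold above the trend. The test compares 2 libraries of the same tissue, not conditions, and its p-values cover counting error only.

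**Figure D1:**
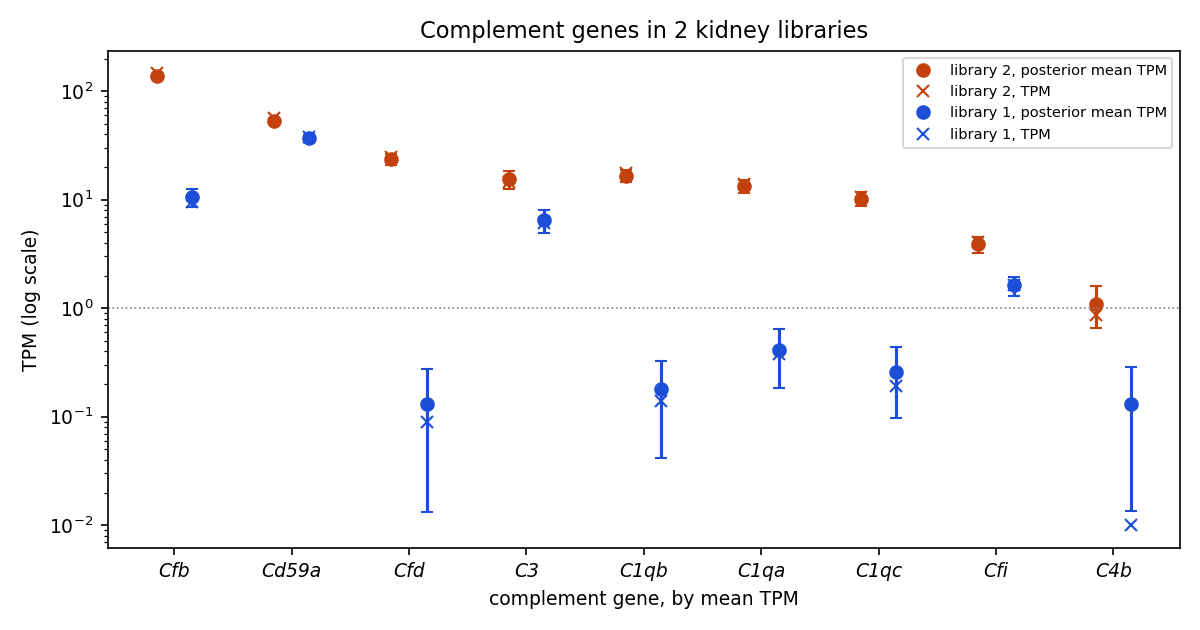
TPM of the 9 complement genes on a log axis, in library 2 (orange) and library 1 (blue), ordered by mean TPM. Crosses are TPM values, dots are the posterior mean TPM and bars are the deposited credibility interval. Library 2 stands above library 1 for all 9 genes, by least for Cd59a, whose order turns when mitochondrial genes are left out of the TPM sum.

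The deposited tables give a credibility interval around the posterior mean TPM of each gene, of unstated level. These intervals did not overlap between the libraries for any of the 9 genes, with library 2 higher, as was the case for 65.1% of all genes tested. The order of levels was Cfb, Cd59a, Cfd, C1qb, C3, C1qa, C1qc, Cfi and C4b in library 2. Within library 2, the intervals of C1qb, C3 and C1qa overlapped each other and that of C1qc overlapped that of C1qa. In library 1 the order was Cd59a, Cfb, C3, Cfi, C1qa, C1qc, C1qb, Cfd and C4b. The first 4 of these had intervals apart from each other, and the last 5 were all under 1 TPM.

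Of the 3 subunit genes of C1q, each was well above 1 TPM in library 2 and well below it in library 1. C1qa (ENSMUSG00000036887.5, chr4:136895917-136898803 of mm10, minus strand) had 14.1 TPM in library 2 against 0.38 TPM in library 1, from 197 and 10 expected counts. C1qb (ENSMUSG00000036905.8, chr4:136880129-136886187, minus strand) had 17.61 TPM in library 2 against 0.14 TPM in library 1, from 260 and 4 expected counts. C1qc (ENSMUSG00000036896.5, chr4:136889804-136893065, minus strand) had 10.65 TPM in library 2 against 0.19 TPM in library 1, from 177 and 6 expected counts. The 3 genes are neighbours on 1 strand of chromosome 4 and encode the 3 chains of the same protein. Their levels spanned 10.65 to 17.61 TPM in library 2, while the few counts of library 1 leave their order there undetermined.

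The scaled counts of C1qa were 14.4-fold higher in library 2 (95% interval 7.65 to 30.4; log2 ratio 3.78 ± 0.46 SE; adjusted p = 2.6e-34, exact binomial test). Those of C1qb were 47.4-fold higher (95% interval 18.3 to 175; log2 ratio 5.40 ± 0.69 SE; adjusted p = 4.2e-55, exact binomial test). Those of C1qc were 21.5-fold higher (95% interval 9.69 to 59.4; log2 ratio 4.32 ± 0.58 SE; adjusted p = 6.4e-34, exact binomial test). The interval of C1qb overlapped those of both other subunits, and a difference between the 3 ratios was not tested. Summed, the subunits had 634 counts in library 2 and 20 in library 1, a 23.1-fold ratio after scaling (95% interval 14.8 to 38.1).

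Macrophage markers were higher in library 2 as a sum of TPM and mixed gene by gene in TMM-scaled counts. The 10 markers listed summed to 58.2 TPM in library 2 and 10.9 TPM in library 1, with 8 and 2 of them at 1 TPM or more and none at 0. Lyz2 and Csf1r gave most of the sum in library 2. Lyz2 had 23.84 TPM in library 2 against 5.31 TPM in library 1 (log2 ratio 0.80, not called). Under TMM, 3 of the 10 markers (30%) were called higher in library 2, beside 35.7% of all genes tested. In the other direction 1 marker was called lower, where 25.2% of all genes tested were. Csf1r, the receptor that macrophages need to survive, had 18.09 TPM in library 2 against 0.75 TPM in library 1 (log2 ratio 3.11). Mrc1, the mannose receptor, had 1.29 TPM in library 2 against 1.43 TPM in library 1 (log2 ratio -1.25, called lower in library 2). Adgre1, which encodes the macrophage antigen F4/80, had 1.61 TPM in library 2 against 0.75 TPM in library 1 (log2 ratio -0.27, not called). With the GC trend described further on subtracted, the log2 ratio was 1.40 for Csf1r, 1.09 for Lyz2, 0.30 for Adgre1 and 0.01 for Mrc1. The lowest of the markers listed was then Cx3cr1, at -0.34. The part of macrophage content in the C1q ratios was not tested.

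Promoters are shown for the 2 C1q subunits with an entry, since these neighbouring genes had similar levels. They come from RefSeq on GRCm38.p6, which had entries for 5 of the 9 genes, and each covers 250 bases before the start of the gene to 50 after it. C1qb is at chr4:136886151-136886450 and C1qc at chr4:136892865-136893164, both on the minus strand and printed 5′ to 3′. Capitals mark GAGGAA, or its reverse complement TTCCTC, a core motif bound by the macrophage factor PU.1 and other ETS proteins.
C1qb: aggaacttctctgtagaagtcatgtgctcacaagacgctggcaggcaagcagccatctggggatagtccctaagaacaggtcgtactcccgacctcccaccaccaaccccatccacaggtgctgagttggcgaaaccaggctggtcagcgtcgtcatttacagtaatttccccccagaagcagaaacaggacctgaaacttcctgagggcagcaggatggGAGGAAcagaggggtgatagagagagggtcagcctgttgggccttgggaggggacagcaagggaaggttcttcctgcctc
C1qc: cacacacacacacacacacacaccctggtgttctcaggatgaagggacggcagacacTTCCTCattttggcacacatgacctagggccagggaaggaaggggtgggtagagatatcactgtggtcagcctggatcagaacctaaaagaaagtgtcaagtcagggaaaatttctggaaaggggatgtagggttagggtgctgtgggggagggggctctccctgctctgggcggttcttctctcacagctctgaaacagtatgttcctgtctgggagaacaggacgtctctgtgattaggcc

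Each of these windows held the motif once, on the strand as printed in C1qb and on the other strand in C1qc. Cd59a had 1 match too, and C3 and Cfd had none in their windows. Both strands were searched, and 28.3% of 32851 promoters of the same length held the motif. A match in letters is a description of the sequence and not of binding.

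C4b encodes complement C4, the substrate of the C1 complex, and was the least abundant of the 9 genes. C4b (ENSMUSG00000073418.4, chr17:34728380-34743882, minus strand) had 0.87 TPM in library 2 against 0.01 TPM in library 1, from 61.68 and 2 expected counts. Scaled counts were 22.6-fold higher in library 2 (95% interval 6.00 to 191; adjusted p = 2.1e-12, exact binomial test). The ratio is uncertain because it rests on 2 expected counts in library 1. C4a, the neighbouring gene for the sex-limited protein, has nearly the same sequence, so part of the reads can match both genes. The deposited posterior SD of the C4b count was 0.8 in library 2 and 0.47 in library 1. The transcripts C4b-201 and C4a-207 were 96.0% identical over 5378 aligned bases, with 433 bases as the longest identical run. C4a was listed at 0.1 TPM in library 2 and at 0 in library 1, from 5.32 and 0 expected counts. With both genes summed, scaled counts were 24.4-fold higher in library 2 (95% interval 6.50 to 206).

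The alignment held 207 mismatches, and reads that cover any of them can tell the genes apart. The stretch shown is the ungapped window of 80 bases with the most differences. It is bases 2741 to 2820 of C4b-201 and bases 2735 to 2814 of C4a-207 from GENCODE, and capitals mark the 13 bases that differ.
C4b: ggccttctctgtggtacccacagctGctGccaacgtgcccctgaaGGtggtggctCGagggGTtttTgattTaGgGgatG
C4a: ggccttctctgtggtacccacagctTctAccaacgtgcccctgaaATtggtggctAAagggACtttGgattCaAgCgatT

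C3, the protein on which all routes converge, was present in both libraries and higher in library 2. C3 (ENSMUSG00000024164.11, chr17:57203970-57228136, minus strand) had 14.56 TPM in library 2 against 6.13 TPM in library 1, from 1044 and 178 expected counts. Its mean was 10.3 ± 5.96 TPM (SD, n = 2 technical libraries). Scaled counts were 4.28-fold higher in library 2 (95% interval 3.64 to 5.04; log2 ratio 2.09 ± 0.12 SE; adjusted p = 4.7e-96, exact binomial test). The TPM ratio was lower, at 2.38-fold, and the tables used a mean length of 4544 bases for C3 in library 2 and 1132 bases in library 1.

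That length is a mean over transcripts weighted by their shares, and the deposited shares of C3 differed between the libraries. C3-201, the full-length transcript of 5136 bases, made up 87.1% of the gene in library 2 and 12.6% in library 1. C3-203, an annotated transcript of 554 bases, made up 12.9% in library 2 and 87.4% in library 1. In expected counts C3-201 still led in both, with 1032.76 in library 2 and 118.17 in library 1, beside 11.24 and 59.83 for C3-203. The TPM of C3-201 was 12.68 in library 2 and 0.77 in library 1, a 16.5-fold ratio, and that of C3-203 was 1.88 in library 2 and 5.36 in library 1. The deposited interval of C3-203 ran from 3.6e-05 to 4.21 TPM in library 2 and from 3.93 to 6.76 TPM in library 1, and these overlapped. The interval of C3-201 ran from 11.2 to 12.7 TPM in library 2 and from 0.61 to 0.89 TPM in library 1, which were apart.

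**Figure D2:**
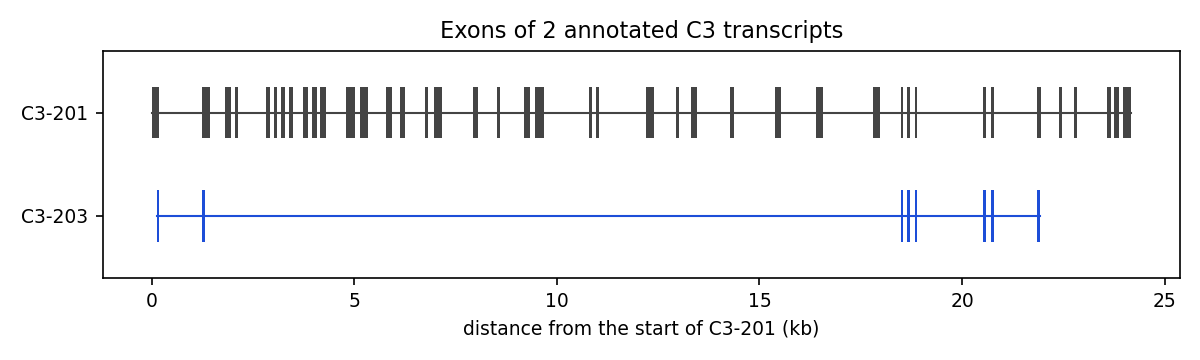
Exons (boxes) of C3-201 above and C3-203 below, by distance in kb from the start of C3-201, in the direction of transcription. The 8 exons of C3-203 lie over exons 1, 2 and 31 to 36 of the 41 exons of C3-201.

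C3-203 has 8 exons, which lie over exons 1, 2 and 31 to 36 of the 41 exons of C3-201. The sequence that sets it apart is the junction of its exons 2 and 3, which leaves from within exon 2 of C3-201, 138 bases before the end of that exon, and enters exon 31 of C3-201, 6 bases after its start. The junction is shown above the stretches of C3-201 that hold its left and its right side, all from GENCODE. Capitals mark 5 bases on either side of the junction in C3-203 and the aligned 10 bases of C3-201, which has no junction at that place.
C3-203 junction: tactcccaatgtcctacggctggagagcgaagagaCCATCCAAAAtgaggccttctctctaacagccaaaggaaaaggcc
C3-201 within exon 2: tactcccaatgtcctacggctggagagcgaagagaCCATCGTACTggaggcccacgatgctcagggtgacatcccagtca
C3-201 end of exon 30 and start of exon 31: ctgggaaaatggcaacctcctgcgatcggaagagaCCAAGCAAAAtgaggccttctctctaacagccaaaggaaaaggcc

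The remaining sequence of C3-203 is shared with C3-201, so reads away from this junction can be assigned to either. The tables hold no counts per junction, and whether reads crossed it was not tested.

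Of the 2 alternative-route activators, Cfb was the most abundant of the 9 genes in library 2 and Cfd had the highest ratio. Cfb, which encodes factor B, the protease subunit of the alternative C3 convertase (ENSMUSG00000090231.6, chr17:34856374-34862518, minus strand), had 146.04 TPM in library 2 against 9.54 TPM in library 1. These came from 4908 expected counts in library 2 and 637.15 in library 1, and the mean was 77.8 ± 96.5 TPM (SD, n = 2 technical libraries). In library 2 Cfb ranked 752 of 43346 gene rows by TPM, and in library 1 it ranked 3825. Scaled counts were 5.62-fold higher in library 2 (95% interval 5.17 to 6.11; log2 ratio 2.49 ± 0.06 SE).

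Cfb overlaps Gm20547, an annotated gene on the same strand that spans the C2 and Cfb loci (chr17:34856412-34882042). A transcript of Gm20547 shares an identical stretch of 2248 bases with Cfb-202, 81.7% of the length of Cfb-202. Gm20547 was listed at 0 TPM in library 2 and at 3.98 TPM in library 1, from 0 and 334.59 expected counts. Reads of Cfb can therefore have been assigned to either row in library 1. With both rows summed, the level was 146 TPM in library 2 and 13.5 TPM in library 1, and scaled counts were 3.68-fold higher in library 2 (95% interval 3.44 to 3.95), against 5.62-fold for Cfb alone. The summed ratio was chosen after the data were seen.

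The transcripts of Cfb also differed in share. Cfb-202, of 2751 bases, made up 52.0% of the gene in library 2 and 35.0% in library 1. Cfb-206, of 2397 bases, made up 11.5% in library 2 and 53.4% in library 1. Cfb-208, of 905 bases, made up 20.2% in library 2 and was listed at 0 in library 1. As for C3, the leading transcript by share was not the same in the 2 libraries.

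Cfd, which encodes factor D, the protease that cleaves factor B (ENSMUSG00000061780.5, chr10:79890853-79892655, plus strand), had 24.98 TPM in library 2 against 0.09 TPM in library 1. These came from 301 expected counts in library 2 and 2 in library 1. Scaled counts were 110-fold higher in library 2 (95% interval 30.1 to 910.1; log2 ratio 6.46 ± 0.92 SE; adjusted p = 1.0e-67, exact binomial test). The width of the interval follows from the 2 counts in library 1, whose own 95% Poisson interval ran from 0.24 to 7.22 counts.

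Adipocyte markers summed higher in library 2, and not all of them were present in library 1. The 7 markers summed to 110 TPM in library 2 and 40.8 TPM in library 1, with 6 and 3 of them at 1 TPM or more. Fabp4 and Car3 gave most of both sums and were not called. They had 72.7 and 23.7 TPM in library 2 against 23.0 and 15.9 TPM in library 1. Of the 6 markers tested, 3 were called higher in library 2, beside 35.7% of all genes tested. Adipoq, the fat cell hormone adiponectin, had 5.02 TPM in library 2 against 1.56 TPM in library 1 (log2 ratio 0.32, not called). Plin1, which coats lipid droplets, had 1.2 TPM in library 2 and was listed at 0 in library 1. Lep, the leptin gene, had 0.06 TPM in library 2 against 0.01 TPM in library 1. The 6 hepatocyte markers summed to 63.7 TPM in library 2 and 10.5 TPM in library 1, with 5 and 4 of them at 1 TPM or more. Of the 5 tested, 2 were called higher in library 2, beside 35.7% of all genes tested, and 3 were not called. The 2 were Ttr and Apoa2, with 31.6 and 12.6 TPM in library 2 against 2.49 and 0.97 TPM in library 1. Alb, the albumin gene, stood at 7.05 TPM in library 2 and 3.55 TPM in library 1 (log2 ratio -0.37, not called). The part of fat in the Cfd ratio was not tested.

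Of the 2 regulators, neither was called between the libraries, and their direction depended on the scaling. Cfi encodes factor I, the soluble protease that degrades C3b and C4b (ENSMUSG00000058952.8, chr3:129835884-129875332, plus strand). It had 4.07 TPM in library 2 against 1.65 TPM in library 1, from 126 and 96 expected counts, and a mean of 2.86 ± 1.71 TPM (SD, n = 2 technical libraries). TPM was higher in library 2, while TMM-scaled counts had a ratio of 0.96 (95% interval 0.73 to 1.26; log2 ratio -0.07 ± 0.20 SE; adjusted p = 0.81, exact binomial test). Scaled by total counts, the log2 ratio of Cfi was 0.84.

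Cd59a encodes a glycolipid-anchored membrane protein that blocks the assembly of the membrane attack complex (ENSMUSG00000032679.8, chr2:104095801-104115354, plus strand). It had the most even levels of the 9 genes, with 56.05 TPM in library 2 and 38.0 TPM in library 1 from 1276 and 1242 expected counts. Its mean was 47.0 ± 12.8 TPM (SD, n = 2 technical libraries). With mitochondrial genes left out of the TPM sum, Cd59a had 69.9 TPM in library 2 against 78.7 TPM in library 1, so that the order of the libraries turned. TMM-scaled counts had a ratio of 0.75 (95% interval 0.69 to 0.81; log2 ratio -0.42 ± 0.06 SE; adjusted p = 8.3e-13, exact binomial test), which is under 2-fold, and by total counts the log2 ratio was 0.49. Its neighbour Cd59b, a second CD59 gene of the mouse, was 83.3% identical over 742 bases and had 16.2 TPM in library 2 against 4.49 TPM in library 1.

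Cd59a-201, the protein-coding transcript of 1691 bases, made up 88.4% of the gene in library 2 and 56.4% in library 1. Cd59a-202, of 681 bases and annotated without a protein, made up 11.6% in library 2 and 43.6% in library 1, from 52.54 and 249.78 expected counts. C4b-203, of 749 bases, was listed at 18.8% of C4b in library 2 and at 0 in library 1, from 1.5 and 0 expected counts. By posterior means its share was 24.2% in library 2 and 45.0% in library 1, so its direction is undetermined. Cfi, Cfd, C1qa and C1qb each had 1 annotated transcript, which made up 100% in both libraries.

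**Figure D3:**
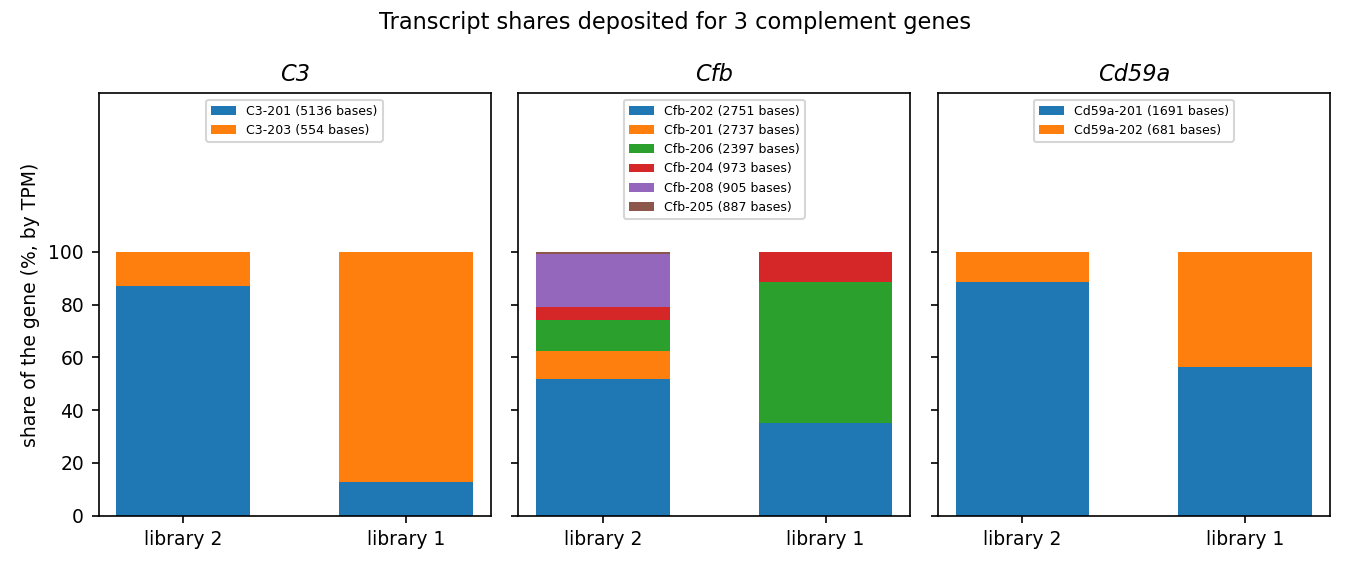
Share of each annotated transcript in the TPM of C3, Cfb and Cd59a (stacked bars, percent), in library 2 on the left and library 1 on the right of each panel. C3-203 made up 12.9% in library 2 and 87.4% in library 1, and Cd59a-202 made up 11.6% in library 2 and 43.6% in library 1.

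Across the 9 genes, the ratio of the libraries followed the GC content of the leading transcript. The 2 genes that were not called had the lowest GC contents, 44.4% for Cd59a and 47.1% for Cfi. C3 had 53.3% and Cfb 52.9%, and the 5 genes with the highest ratios had between 55.3% (C4b) and 59.5% (C1qa). Spearman's rho between GC content and the log2 ratio was 0.80 and Pearson's r was 0.91 over the 9 genes, which share their libraries and, in part, their loci. Over 11508 genes with at least 100 counts, rho was 0.91 and r was 0.84, so the relation was shared by genes in general. These are descriptions across genes, which are not independent replicates.

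The first 90 coding bases are printed for the gene with the highest ratio and the gene with the lowest. Both come from GENCODE with the start codon in capitals, and they hold 63.3% G and C in Cfd and 51.1% in Cd59a. The same window held 54.4% in C1qb and 53.3% in Cfi, whose whole transcripts hold 57.4% and 47.1%. Such a window therefore does not stand for the GC content of the transcript.
Cfd-201: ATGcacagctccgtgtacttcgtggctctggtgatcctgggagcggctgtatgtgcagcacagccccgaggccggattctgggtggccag
Cd59a-201: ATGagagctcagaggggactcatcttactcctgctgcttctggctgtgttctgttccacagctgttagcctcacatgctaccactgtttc

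Set beside genes of like GC content, most of the 9 ratios were less far from the middle. Genes with 55 to 60% GC had a median log2 ratio of 3.51 (n = 2242), beside 6.46 for Cfd, 5.40 for C1qb, 4.32 for C1qc, 4.19 for C4b and 3.78 for C1qa. Genes with 50 to 55% GC had a median of 1.04 (n = 3015), beside 2.09 for C3 and 2.49 for Cfb. The class of Cfi had a median of -0.50 and that of Cd59a a median of -1.36, beside -0.07 and -0.42 for the genes themselves. With a local regression on GC content subtracted, Cfd kept a log2 ratio of 2.30, C1qb of 1.75 and Cfb of 1.22. These 3 were still called, Cfb by its own row alone. Summed with Gm20547, Cfb had a log2 ratio of 1.88 before subtraction, beside a trend of 1.27 at its GC content. These values lie less than 2-fold apart, short of the limit of a call, though the test itself was not run on the sum. The ratio was 0.64 for C3, 1.67 for C4b and 0.57 for C1qc, none of them called, and -0.92 for C1qa, whose direction turned. The part of GC content in these ratios was not tested beyond this subtraction, and with 1 library on each side, other differences between the libraries and this trend cannot be told apart.

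**Figure D4:**
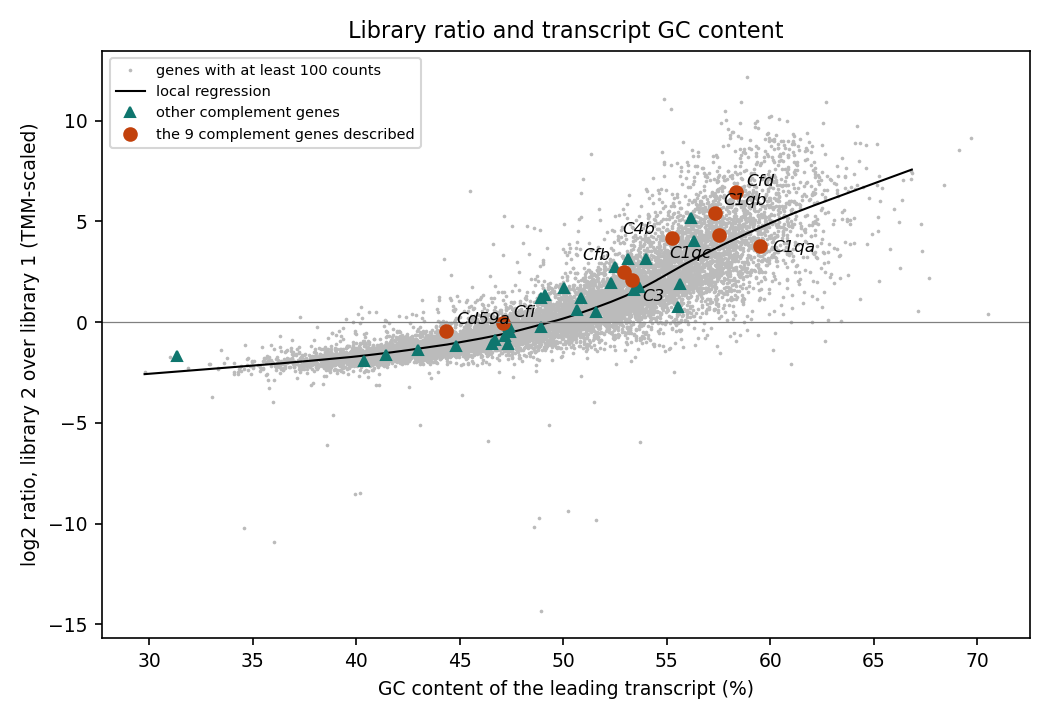
Log2 ratio of library 2 over library 1 (TMM-scaled counts) against the GC content of the leading transcript in percent. Grey dots are genes with at least 100 counts, the line is a local regression, triangles are other complement genes and orange dots are the 9 genes described, from -0.42 for Cd59a to 6.46 for Cfd; the signs of Cd59a and Cfi turn when scaled by total counts.

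The rest of the complement system was taken from a list of 45 further genes. Of these, 30 had enough counts to be tested, 13 were called higher in library 2, 7 were called higher in library 1 and 10 were not called. The 13 made up 43.3% of the 30, beside 35.7% of all genes tested. For the direction of the 7, the share over all genes tested was 25.2%. Whether the further complement genes differ from genes in general in these shares was not tested. The median log2 ratio of the 30 was 0.69, between the 3.78 of the 9 genes and the 0.12 of all genes tested. At 1 TPM or more there were 20 of the 45 in library 2 and 13 in library 1, and 25 reached it in neither.

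Among the early components, C2, the protease that pairs with C4, had 25.1 TPM in library 2 against 1.82 TPM in library 1 (log2 ratio 2.76, called higher in library 2). Gm20547, described above, overlaps C2 too, and its 334.59 counts in library 1 stand beside 104.26 for C2. Whether reads of C2 were assigned to Gm20547 was not tested, so the ratio of C2 is for its own row. The C1 proteases C1ra and C1s1 had 10.9 and 18.6 TPM in library 2 against 1.87 and 9.58 TPM in library 1, and of them C1ra was called. Of the 8 lectin-route genes, which recognise sugars in place of antibody, 2 reached 1 TPM in library 2 and 0 in library 1. Of the 7 terminal components, which form the lytic pore, 4 could be tested and 1 was called, higher in library 2. Shares over all genes tested were 35.7% in that direction and 25.2% in the other. C8a, which encodes a chain of that pore, had 32.8 TPM in library 2 against 34.2 TPM in library 1 (log2 ratio -0.89, not called).

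Soluble regulators outside the 9 genes included abundant ones. Clu, which encodes the chaperone clusterin, had 202 TPM in library 2 against 66.6 TPM in library 1 (log2 ratio 1.87, called higher). Serping1, which encodes the C1 inhibitor, had 67.1 TPM in library 2 against 6.56 TPM in library 1 (log2 ratio 1.92, called higher).

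Other genes of this kind moved in both directions. Cpn1, the catalytic chain of the carboxypeptidase that inactivates anaphylatoxins, had 72.6 TPM in library 2 against 0.76 TPM in library 1 (log2 ratio 5.15, called higher). The membrane regulators Cr1l and Cd55 had 57.0 and 6.83 TPM in library 2 against 44.5 and 9.93 TPM in library 1, with log2 ratios of -1.17 and -1.92, both called lower in library 2. Cd93, a receptor first linked to C1q, had 6.19 TPM in library 2 against 5.02 TPM in library 1 (log2 ratio -1.06, called lower). TPM was higher in library 2 for Cr1l and Cd93, so their direction depended on the scaling. With the GC trend subtracted, the log2 ratio was -0.13 for Cr1l, -0.26 for Cd55, -0.52 for Cd93 and 2.11 for Cpn1. For Clu and Serping1 it was -0.87 and 0.91. Over the 38 complement genes with a GC value and a test, Spearman's rho between GC content and the log2 ratio was 0.93.

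**Figure D5:**
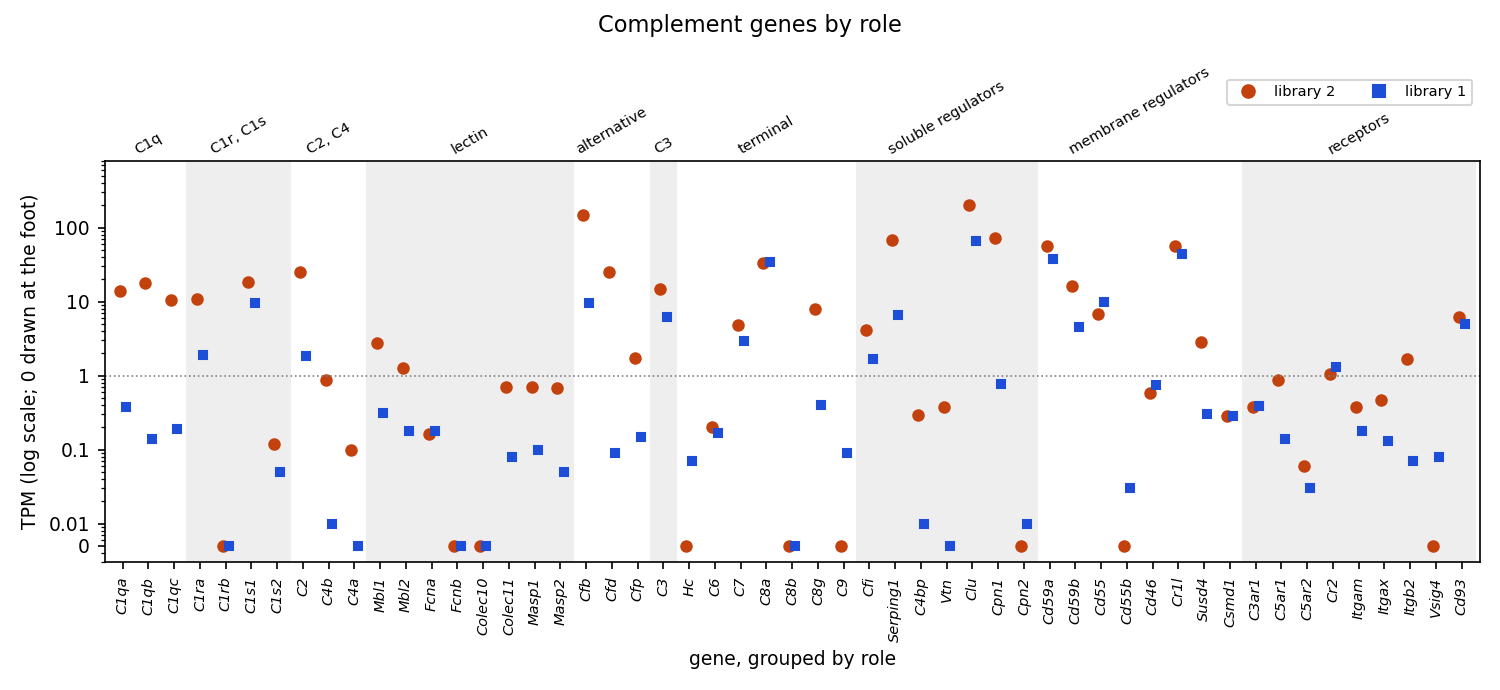
TPM on a log axis of complement genes grouped by role, in library 2 (orange dots) and library 1 (blue squares), with values of 0 drawn at the foot. Clu stood at 202 TPM in library 2 and 66.6 TPM in library 1, and Serping1 at 67.1 TPM in library 2 and 6.56 TPM in library 1.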

How the data were processed

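Polyadenylated RNA from the kidney of 1 mouse was sequenced in 2 libraries, which the labels call technical replicates. The tables of genes and transcripts refer to mm10 and annotation M4, per the text deposited with them. Of the aligner, the quantifier and the use of strand in counting, the names and settings were not given in the sources used here. Per the file headers, the authors deposited expected counts, estimated reads per gene or transcript without normalization, and the posterior mean counts beside them. TPM values were deposited with the bounds of a credibility interval of unstated level, and transcript shares within a gene were deposited as percent values.

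Symbols, coordinates and transcript names were looked up in GENCODE M21 (mm10), and 42462 of 43346 gene rows matched by identifier. Another 26345 rows, for spike-ins and short RNAs, were at 0 and were left out. Expected counts were rounded, and library sizes were scaled by TMM (edgeR 4.0.16, R 4.3.3) over genes with at least 10 counts. A quasi-likelihood fit needs replicates, and in its place an exact conditional binomial test, two-sided, was run in Python 3.11.15 with scipy 1.17.1. Its p-values were adjusted over 15553 genes by the Benjamini-Hochberg method. Log2 ratios used a prior count of 0.5. The test was checked on simulated counts. GC content was that of a gene's most abundant transcript with a length within 10% of the reference, and its trend was a local regression with a span of 20% on genes with at least 100 counts (statsmodels 0.14.6). Shared sequence was searched with blastn 2.17.0 at 95% identity over 100 bases or more, and C4b with C4a and Cd59a with Cd59b were aligned directly.

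The alternatives were DESeq2 1.42.0 size factors, total counts, TMM without mitochondrial genes, removal of the GC trend, posterior mean counts, no count filter, the adjusted p alone, another TPM limit of 5, posterior mean TPM, TPM without mitochondrial genes and each library alone. All 9 genes were named, with values for other complement genes of mean TPM 5 or more and for C4a and Cd59b, and cell type markers were given as examples. A gene that this rule selects is not reported here, though counts over the list include it. The genes and lists were chosen with earlier results of these data known. Intervals cover counting error only, at 95%.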

Additional observations from a re-analysis of the deposited data

How the results depend on the processing

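No paired analysis was possible because the 2 libraries form 1 group and there is no second group that shares their replicate numbers. Of the 9 genes, 7 were called under TMM and also under DESeq2 size factors, total counts, TMM without mitochondrial genes, posterior mean counts and no count filter, and 8 were past the adjusted p alone, with Cd59a lower in library 2. With the GC trend removed, 3 were called, and 3305 of all genes, against 9463 under TMM. C3 then had a log2 ratio of 0.64 (adjusted p = 3.6e-08, exact binomial test, under 2-fold), C4b 1.67 (adjusted p = 0.076, exact binomial test) and C1qc 0.57 (adjusted p = 0.42, exact binomial test). C1qa turned to -0.92 (adjusted p = 0.13, exact binomial test). Cfi turned to 0.84 by total counts and to 0.53 without the GC trend, and Cd59a to 0.49 and 0.70 in the same settings. The cause of these differences was not tested. Summed with Gm20547, an alternative added after the data were seen, Cfb kept a log2 ratio of 1.88 under TMM. This sum was not run with the GC trend removed, and it lay less than 2-fold above that trend at the GC content of Cfb.

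The number of genes at 1 TPM or more was 4 over both libraries, and leaving out a library gave 4 to 8. At a limit of 5 TPM it was 3. Mean TPM of Cd59a was 74.3 with mitochondrial genes left out, against 47.0. From posterior means, the mean share of the leading transcript was 36.1% for C4b and 91.1% for C1qc, against 90.6% and 99.6% as deposited. Depth limits C4b, Cfd and the C1q genes most, with 2 to 10 counts each in library 1, and 1 mouse limits all levels.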
